A study of Mus musculus with 12 samples.

Results

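The genes for presentation on MHC class II are 9 of the 32285 features counted in this series, and each symbol matched 1 row of the count tables. They are the chains of the class II molecules (H2-Aa, H2-Ab1 and H2-Eb1), the editor of their peptides (H2-DMa and H2-DMb1), the inhibitor of that editor (H2-Oa and H2-Ob), the invariant chain (Cd74) and a transactivator of class II genes (Ciita). They were picked by symbol, with earlier results of these data known, and followed through all cells of 12 libraries of mouse lymph node cells, made with a droplet method that counts the 3′ ends of single transcripts as unique molecular identifiers (UMIs). The libraries cross 3 treatments with 2 genotype labels and 2 sorted fractions, so each group is 1 library. All mice were C57BL/6, 7 to 10 weeks old, carried floxed Atg12 (ATG12 fl/fl), and were given tamoxifen 5 times. They were labelled positive or negative for CDH5 CreER, a tamoxifen-dependent recombinase under the Cdh5 promoter, which is active in blood and lymphatic endothelium alike. The shaved abdominal skin received 4% oxazolone, a contact sensitizer, in acetone and olive oil, and nodes were taken on day 3 or day 7, or it received the acetone and olive oil alone (vehicle). After depletion with CD45 beads, the CD45-negative cells were sorted for CD31 (here the CD31 fraction, endothelial cells by label) and the bead-bound cells formed the CD45 fraction (immune cells by label). The labels give neither the number of mice behind a library nor which mice gave which pair of fractions. Where 6 values are listed for a class, the order is always vehicle Cre-negative, vehicle Cre-positive, day 3 Cre-negative, day 3 Cre-positive, day 7 Cre-negative and day 7 Cre-positive.

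Class II molecules show peptides from engulfed proteins to CD4+ T cells. The α and β chains (H2-Aa with H2-Ab1, and in other strains the Eα chain with H2-Eb1) assemble in the endoplasmic reticulum on the invariant chain Cd74, which blocks the groove until it is cut away in endosomes. C57BL/6 mice make no Eα chain, so H2-Eb1 RNA stands for no class II molecule of its own in them. H2-DM then exchanges the remaining fragment for antigen peptides, and H2-O, known mainly from B cells, holds H2-DM back. Full transcription of most of these genes depends on the coactivator CIITA, which dendritic cells and B cells make constitutively and which interferon gamma can induce in endothelial cells and fibroblasts. CIITA does not bind DNA itself but is recruited to a conserved module in these promoters, in which the X box is bound by RFX and the Y box, an inverted CCAAT, by NF-Y.

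Of the 9 genes, 7 lie in the MHC region of chromosome 17 (GRCm38, GENCODE positions): H2-Oa at chr17:34092340-34095234, H2-DMa at chr17:34119541-34139101, H2-DMb1 at chr17:34153072-34160230, H2-Ob at chr17:34238903-34254414, H2-Ab1 at chr17:34257689-34269419 and H2-Eb1 at chr17:34305867-34316674 on the plus strand, and H2-Aa at chr17:34282744-34287823 on the minus strand. Ciita is at chr16:10480059-10528418. The promoters of 4 members are printed because they share a module at nearly the same spacing. Each line is 72 bases of the gene's strand, 5′ to 3′, from 110 to 39 bases before the annotated start (RefSeq, GRCm38.p6), with GCAAC, the core of the X box, and ATTGG, the inverted CCAAT of the Y box, in capitals. The stretches are chr17:34287862-34287933 (minus strand), chr17:34305757-34305828, chr17:34092269-34092340 and chr17:34238795-34238866 (plus strand), in the order printed.
H2-Aa: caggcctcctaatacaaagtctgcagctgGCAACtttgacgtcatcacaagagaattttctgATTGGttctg
H2-Eb1: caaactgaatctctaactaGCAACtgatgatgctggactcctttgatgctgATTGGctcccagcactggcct
H2-Oa: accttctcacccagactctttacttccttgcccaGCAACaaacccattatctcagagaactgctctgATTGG
H2-Ob: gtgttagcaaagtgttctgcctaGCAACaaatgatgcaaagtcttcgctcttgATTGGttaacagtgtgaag

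GCAAC starts 81 bases before the start of H2-Aa, 91 before H2-Eb1, 76 before H2-Oa and 87 before H2-Ob, and ATTGG follows 33, 32, 33 and 30 bases later. An entry was used for 6 of the 9 members, and 4 of those 6 hold the pair. H2-DMb1 has ATTGG at 61 bases before its start without GCAAC at that distance, and H2-DMa has ATTGG 198 bases before 1 of 2 annotated starts. Over all 32851 promoter windows of 300 bases, 37.41% hold CCAAT on either strand, 35.21% hold GCAAC on either strand, and 0.7945% hold GCAAC followed by ATTGG at 25 to 40 bases on either strand, a distance range set after the members' spacings were seen. These are matches of letters in a window and show no binding.

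Library totals ran from 36724887 to 76187731 UMIs, and 5984 to 11636 cells a library passed the filters, 89054 in all after removal of likely doublets. Pairs of libraries shared 7 to 31 cell barcodes. Cells were clustered without the members, the gene lists used below, or Atg12 among the variable genes, so that class II levels did not set the classes. Each class is a "-like" class, named from a written list of markers, and the suffix is dropped below. Levels are in CPM, the UMIs of a gene per 1000000 UMIs summed over the cells of a class in a library. The defining markers were present where the names ask for them: Cd79a at 2019.8 to 2905 CPM in B cells, Cd3e at 455 to 528 in T cells of the CD31 fraction and Xcr1 at 358 to 516 in type 1 dendritic cells. Fscn1 stood at 2029.9 to 2559 in migratory mature dendritic cells, and Pdgfra at 249.8 to 491 in fibroblastic cells. Glycam1 stood at 12988 to 78054 in cells of the high endothelial venules and Prox1 at 664 to 1003 in lymphatic endothelium. Fibroblastic cells were found in number only in the CD45 fraction, against its label, and B and T cells made up part of the CD31 fraction. The CD31 libraries of vehicle Cre-negative and day 3 Cre-positive mice stood apart: a cluster of low UMI number with mixed genes held 520 and 1891 of their cells and 23 to 53 in the other 4, and it was used in no comparison. Atg12 stood at 51.7, 74.5, 47.4, 62.0, 51.8 and 65.4 CPM in blood endothelium, so the Cre-positive label did not go with a lower level. The deleted part of the gene is not given in the labels, and counts of 3′ ends may lie outside it, so this checks nothing about the label.

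Transcripts of the class II chains and Cd74 were most abundant in type 1 dendritic cells, the cross-presenting subset, followed by a cluster of mixed myeloid cells and by B cells. Cd74 reached 16281, 15535, 17146, 14899.8, 16050.3 and 18677 CPM in the type 1 dendritic cells of the 6 CD45 libraries (52, 35, 46, 24, 33 and 52 cells), and 11912, 9404, 12848, 10667, 12293 and 12829.9 in B cells (3094, 1931, 2820, 2445, 2735 and 2681 cells). The levels of the type 1 dendritic cells lay above those of B cells in every library for H2-Ab1, which stood at 7746, 7606, 8103, 7324, 7796 and 8408 in type 1 dendritic cells and 3293, 3099.6, 3484, 3209, 3441 and 3376 in B cells. H2-Aa had medians of 6464 and 3634 in these 2 classes and H2-Eb1 of 7086 and 3471, again in CPM. Ordered by the median level of Cd74, the classes ran from type 1 dendritic cells over a cluster of mixed myeloid cells (median 13912, range 11912 to 16184), B cells, plasmacytoid dendritic cells (7427, range 6645 to 9012), cycling B cells (7393, range 5294 to 8799) and macrophages (7119, range 4529.9 to 14439) to migratory mature dendritic cells (5814, range 3759 to 8087) and plasma cells (2246, range 1668 to 3292). The ranges of neighbours in this order overlapped, except those of B cells and plasmacytoid cells and those of migratory mature dendritic cells and plasma cells. The macrophage class held 14 to 45 cells a library and the plasma cell class 3 to 153, so their values are given without tests.

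**Figure D1:**
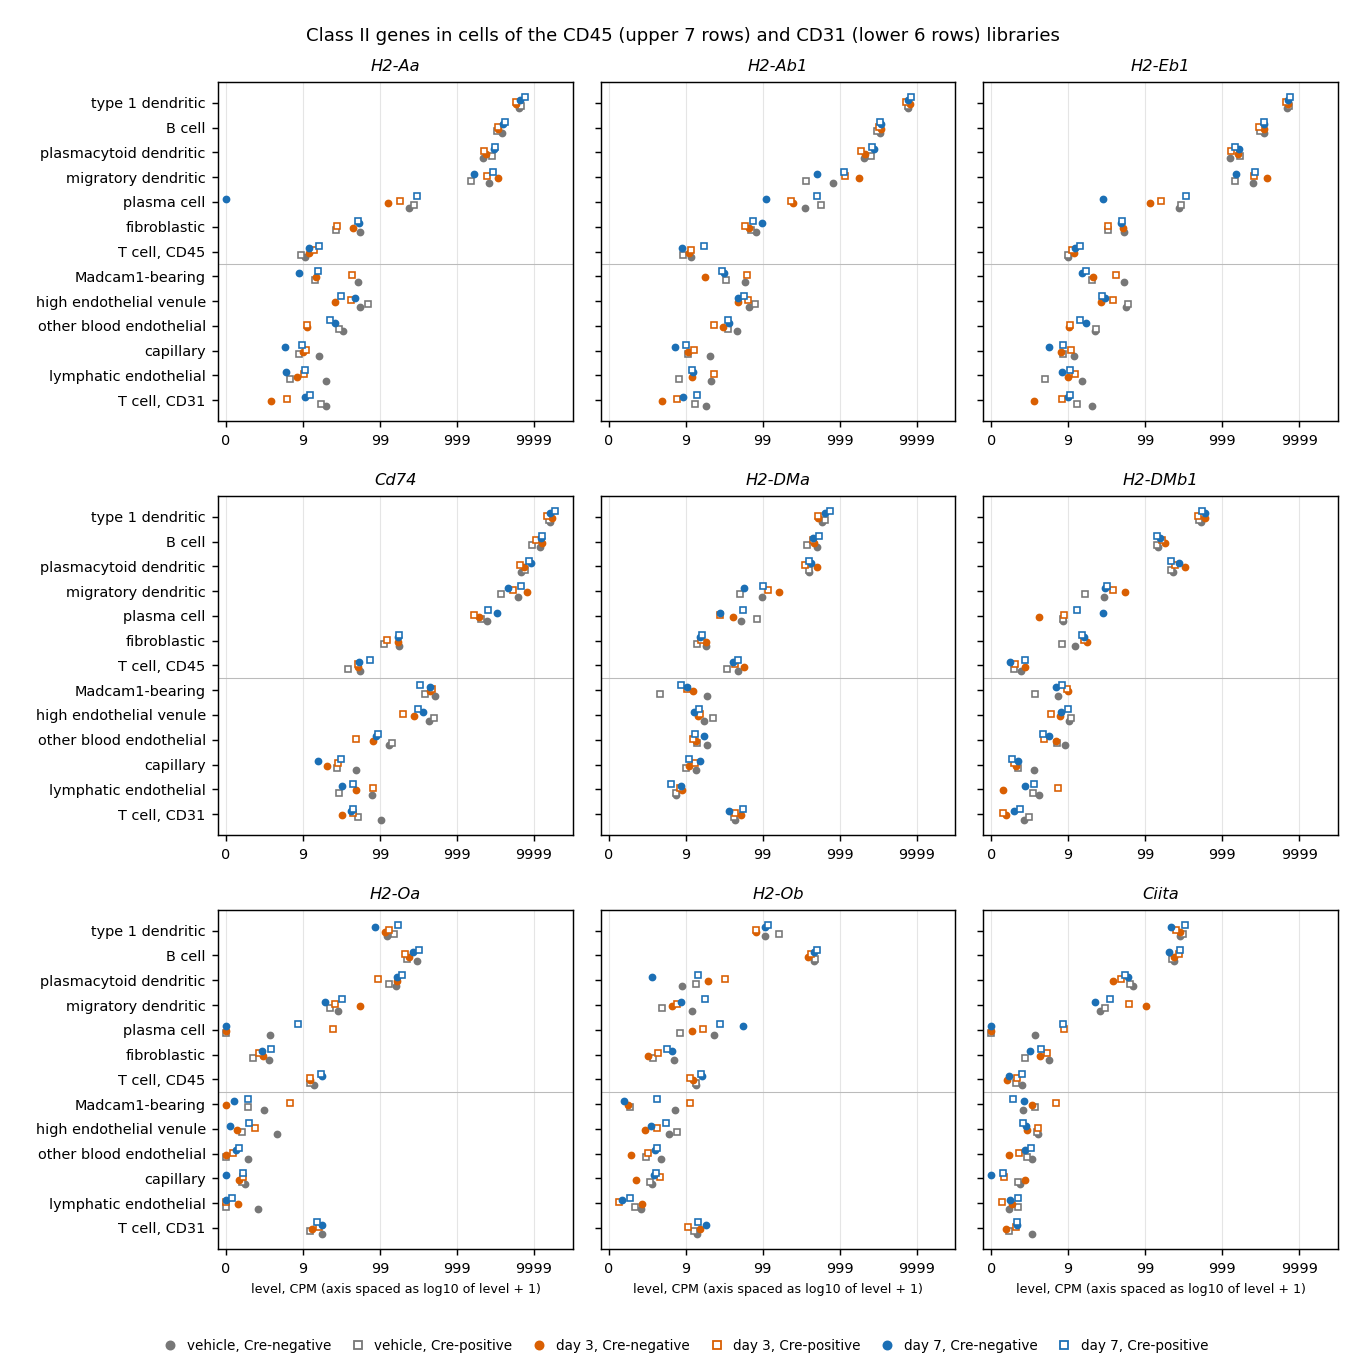
Levels of the 9 members (1 panel each, CPM on an axis spaced as log10 of the level plus 1) in classes of the CD45 libraries (upper rows) and CD31 libraries (lower rows), 1 point for each of the 6 libraries, coloured by treatment and open where Cre-positive. Cd74 medians run from 16166 in type 1 dendritic cells to 26.9 in capillary cells.

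The inhibitor of the peptide editor was ordered over these classes otherwise than the class II chains and the editor. H2-DMb1, the β chain of the editor, stood at 527, 496, 593, 488, 603 and 549 CPM in type 1 dendritic cells and 146, 143, 179.6, 163, 152 and 139 in B cells, without overlap. H2-Ob, the β chain of the inhibitor, was lower in type 1 dendritic cells than in B cells, at 107, 161, 80.4, 80.6, 107 and 115 in type 1 dendritic cells and 467, 478, 391, 428, 469 and 503 in B cells, again without overlap. H2-Oa had medians of 125 and 249 in the same classes. Plasmacytoid dendritic cells, the interferon-producing subset, held H2-Oa at 159.6, 131, 167, 93.7, 166 and 193 but H2-Ob at 7.98, 12.6, 18.5, 31.2, 2.69 and 13.4. The ratio of H2-Oa to H2-Ob UMIs was 12.4 (3.0 to 62.0) in plasmacytoid dendritic cells (median and range over 6 libraries), 3.1 (1.83 to 9.57) in migratory mature dendritic cells, 1.27 (0.8 to 1.61) in type 1 dendritic cells and 0.581 (0.459 to 0.638) in B cells. The plasmacytoid ratio was above that of the B cells in 6 of 6 libraries and below that of the migratory cells in both day 3 libraries. It rests on 5, 5, 4, 12, 1 and 8 UMIs of H2-Ob, and that of the migratory cells on 4 to 29, so the upper ends of these ranges are imprecise. Free RNA of the CD45 libraries held H2-Ob at 64.05 to 154 CPM, and its part in these low levels was not tested. The ratio of H2-DMb1 to H2-DMa was 0.91 (0.733 to 1.14) in type 1 dendritic cells, 0.611 (0.542 to 0.679) in plasmacytoid dendritic cells, 0.347 (0.26 to 0.387) in B cells and 0.318 (0.295 to 0.528) in migratory mature dendritic cells. These ratios were looked at after the levels were seen, carry no test, and are compared between classes only, since counts of different genes need not be captured alike. Ciita itself stood at 285, 311, 282, 248, 216 and 327 in type 1 dendritic cells, 239, 219, 236, 274, 201 and 284 in B cells, 68.6, 62.9, 37.1, 46.9, 59.1 and 53.7 in plasmacytoid dendritic cells and 24.5, 28.9, 103, 60.9, 21.6 and 33.6 in migratory mature dendritic cells.

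**Figure D2:**
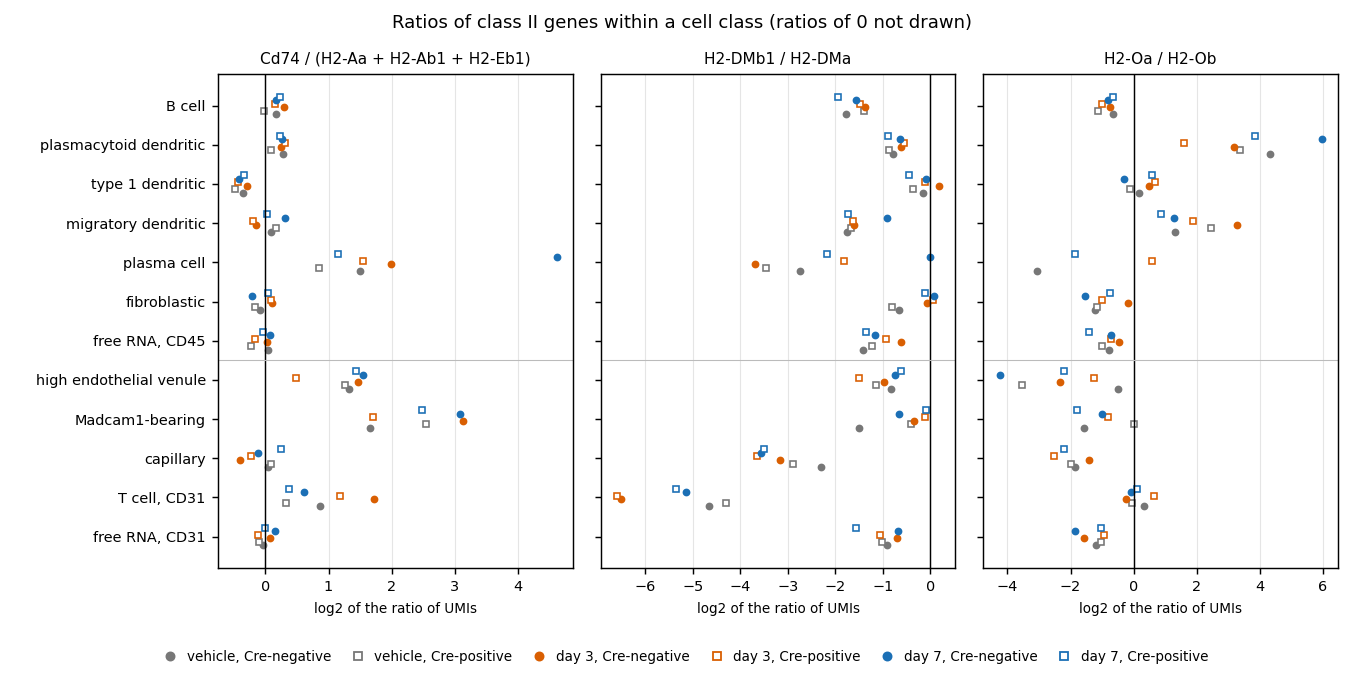
Ratios between members within a class (log2 of the ratio of UMIs), 1 point for each of the 6 libraries, coloured by treatment and open where Cre-positive: Cd74 over the summed class II chains, H2-DMb1 over H2-DMa, and H2-Oa over H2-Ob. The highest medians drawn are 12.4 in plasmacytoid cells for the last ratio, where their range overlaps that of migratory dendritic cells, and 5.7 in the Madcam1-bearing cluster for the first, where its range overlaps that of plasma cells.

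Migratory mature dendritic cells, which carry antigen in from the skin and are known to shut down new class II synthesis as they mature, were lower than type 1 dendritic cells for 9 of 9 members in a fit over the 6 libraries (edgeR quasi-likelihood, library as a term; this comparison and the 2 between vessel types below were added after the levels were seen), where 32.8% of all genes tested were called lower. H2-Ob passed the filter on low counts through type 1 dendritic cells (45 to 104 UMIs a library, against 4 to 29 in migratory cells), so the filter sets this count in part. The log2 difference was -4.0 (SE 0.17, adjusted p = 5.73e-11) for H2-DMb1, whose levels were 28.5, 15.4, 53.7, 37.4, 29.3 and 30.6 in the migratory cells. It was -3.48 (SE 0.24) for H2-Ob, -3.11 (SE 0.23) for H2-Ab1, -2.65 (SE 0.25) for Ciita and -2.63 (SE 0.22) for H2-DMa. For the remaining 4 genes it was nearer to 0, at -2.07 for H2-Oa, -1.56 for H2-Eb1, -1.47 for Cd74 and -1.42 for H2-Aa. The chains of 1 heterodimer stood at unequal levels there, H2-Aa at 2563, 1508, 3359, 2408, 1664 and 2908 and H2-Ab1 at 826, 366, 1787, 1177, 512 and 1149.5 in the migratory cells. Of all genes tested, 32.5% were called higher in this comparison. Of 6 tested genes for antigen processing, 5 were higher in the migratory cells and 1 was lower (log2 differences of 2.78 for Lgmn, the asparagine endopeptidase, and -1.55 for Cst3, a cathepsin inhibitor). Of 5 tested costimulatory genes 3 were higher (Cd274 by 4.28, Cd40 by 3.45, Icosl by 3.09). March1, the ubiquitin ligase that removes class II molecules from the surface of immature cells, was lower (log2 difference -5.22), and of 6 tested promoter factors 3 were higher and 1 lower (Rfxap, -1.60). Of 8 genes of interferon gamma signalling 6 were higher and 1 lower (Ifngr1, the receptor's binding chain, -3.78), of 5 of its targets 2 were higher and 3 lower (Cxcl9 at -5.93), and of the 2 other locus genes H2-Eb2 was higher (3.95).

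B cells, which were found in both fractions, exceeded the 3 stromal classes for every member. Against blood endothelium of the same CD31 libraries 9 of 9 members were higher (37.4% of all genes were), against lymphatic endothelium 9 of 9 (39.7%), and against fibroblastic cells of the CD45 libraries 9 of 9 (42.3%). Some members passed the filter on low counts through B cells, which sets these counts in part. In lymphatic endothelium H2-Oa, H2-Ob and Ciita had 0 to 7, 1 to 7 and 1 to 7 UMIs a library and H2-DMb1 1 to 17, against 408 to 2990 for these 4 genes in B cells, and H2-Oa had 5 to 25 in blood endothelium. The smallest log2 difference from blood endothelium was 5.22 (SE 0.13) for H2-DMb1 and the largest 8.94 (SE 0.17) for H2-Oa. Cd74 differed by 6.65 (SE 0.19) and Ciita by 7.32 (SE 0.11). From fibroblastic cells the differences ran from 3.87 for H2-DMb1 to 7.31 for H2-Oa, with 6.56 for Cd74, and from lymphatic endothelium Cd74 differed by 8.22. The genes around the set moved in part with it. Both other class II genes of the locus in the files were higher in B cells than in blood endothelium (H2-Eb2 by 8.89, H2-DMb2 by 8.39), as were 5 of 5 costimulatory genes (Cd86 by 8.76) and 5 of 7 promoter factors, by small amounts (Rfx5, the DNA-binding subunit of RFX, by 1.57). Antigen processing was split, with Ifi30, the lysosomal thiol reductase, and Ctss, the cathepsin that trims the invariant chain in B and dendritic cells, higher by 6.06 and 5.08, and Ctsl, the cathepsin that does so in thymic epithelium, lower in B cells (-5.03). Of 8 interferon gamma signalling genes 2 were higher and 5 lower (Ifngr1 at -2.02), and of the 2 ligases that turn class II molecules over March1 was higher (8.58) and March8 lower (-4.92). Against lymphatic endothelium both other locus genes, 5 of 5 costimulatory genes and 5 of 7 promoter factors were higher, antigen processing had 2 of 7 higher and 5 lower, and 9 of 9 interferon gamma targets were lower. Against fibroblastic cells both other locus genes and 6 of 7 promoter factors were higher, costimulation had 5 of 6 higher and 1 lower, antigen processing 3 of 7 higher and 4 lower, and interferon gamma targets 1 of 9 higher and 6 lower. The shares of all genes called lower in B cells were 43.2% against blood endothelium, 41.3% against lymphatic endothelium and 41.1% against fibroblastic cells. All 9 interferon gamma targets were lower in B cells than in blood endothelium (Cxcl9 at -7.35, Iigp1 at -6.71).

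Outside the presenting cells, the members were present at levels at which RNA outside the cells had to be taken into account. Barcodes of 10 to 100 UMIs, taken as droplets without a cell, held Cd74 at 735 to 1509 CPM in the CD31 libraries and 1779 to 3168 in the CD45 libraries, and H2-Ab1 at 231 to 494 and 678 to 1193. Each stromal class was therefore read in 3 ways: against T cells of the same libraries, which in mice are not known to make class II molecules, against the level that free RNA would give if all UMIs of 8 B cell genes in the class came from it, and as a share of cells with a UMI after each cell was thinned to 1000 UMIs. Thinning evens out depth but leaves free RNA in, so a share above that of T cells does not separate a class's own RNA from free RNA. Cd74 stood at 101, 50.3, 30.9, 43.7, 41.4 and 43.8 CPM in T cells of the CD31 fraction and H2-Ab1 at 17.5, 12.1, 3.97, 6.8, 8.38 and 13.2, and both were below the free RNA expectation in 6 of 6 libraries, with ratios of observed to expected UMIs of 0.689 and 0.405. H2-Aa (0.437) and H2-Eb1 (0.395) were also below it in 6 of 6 libraries, H2-DMb1 (0.503) and Ciita (0.839) in 5 of 6. The T cell class was not uniform. Pooled over the CD31 libraries, Cd74 stood at 16.3 and 16.2 CPM in its largest clusters, of 2302 and 1592 cells, and at 136 and 220.2 in those of 1152 and 383 cells, so the level of the class lies above that of its largest clusters.

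H2-DMa, H2-Oa and H2-Ob were above the free RNA expectation in T cells in every library, 3 of 9 members, where 88.8% of all genes with enough UMIs were. H2-DMa stood at 42.1, 41.9, 51.9, 42.3, 35.3 and 55.4 CPM, H2-Oa at 16.4, 11.4, 12.2, 15.1, 16.4 and 14.3 and H2-Ob at 12.98, 11.9, 14.5, 9.65, 17.3 and 13.4, and observed UMIs exceeded expected ones 8.86, 12.7 and 4.87 times. The same 3 members exceeded it in 6 of 6 CD45 libraries (ratios 11.1, 8.56 and 4.52, against a share of 93.8% of genes). Both exact sign-flip tests over 6 libraries gave p = 0.03125 for each gene, two-sided, the smallest value 6 libraries can give. H2-DMb1, the partner of H2-DMa, was at 1.66, 2.14, 0.567, 0.439, 1.01 and 1.36 in T cells of the CD31 fraction, so the ratio of H2-DMb1 to H2-DMa was 0.0265 (0.0104 to 0.0511) there and 0.338 (0.284 to 0.385) in B cells of the same libraries. After thinning to 1000 UMIs, 4.19, 4.19, 5.42, 3.99, 3.58 and 5.44% of T cells held a UMI of H2-DMa. The 6 stromal classes described below held smaller thinned shares than T cells for H2-DMa, H2-Oa and H2-Ob in 6 of 6 libraries.

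**Figure D3:**
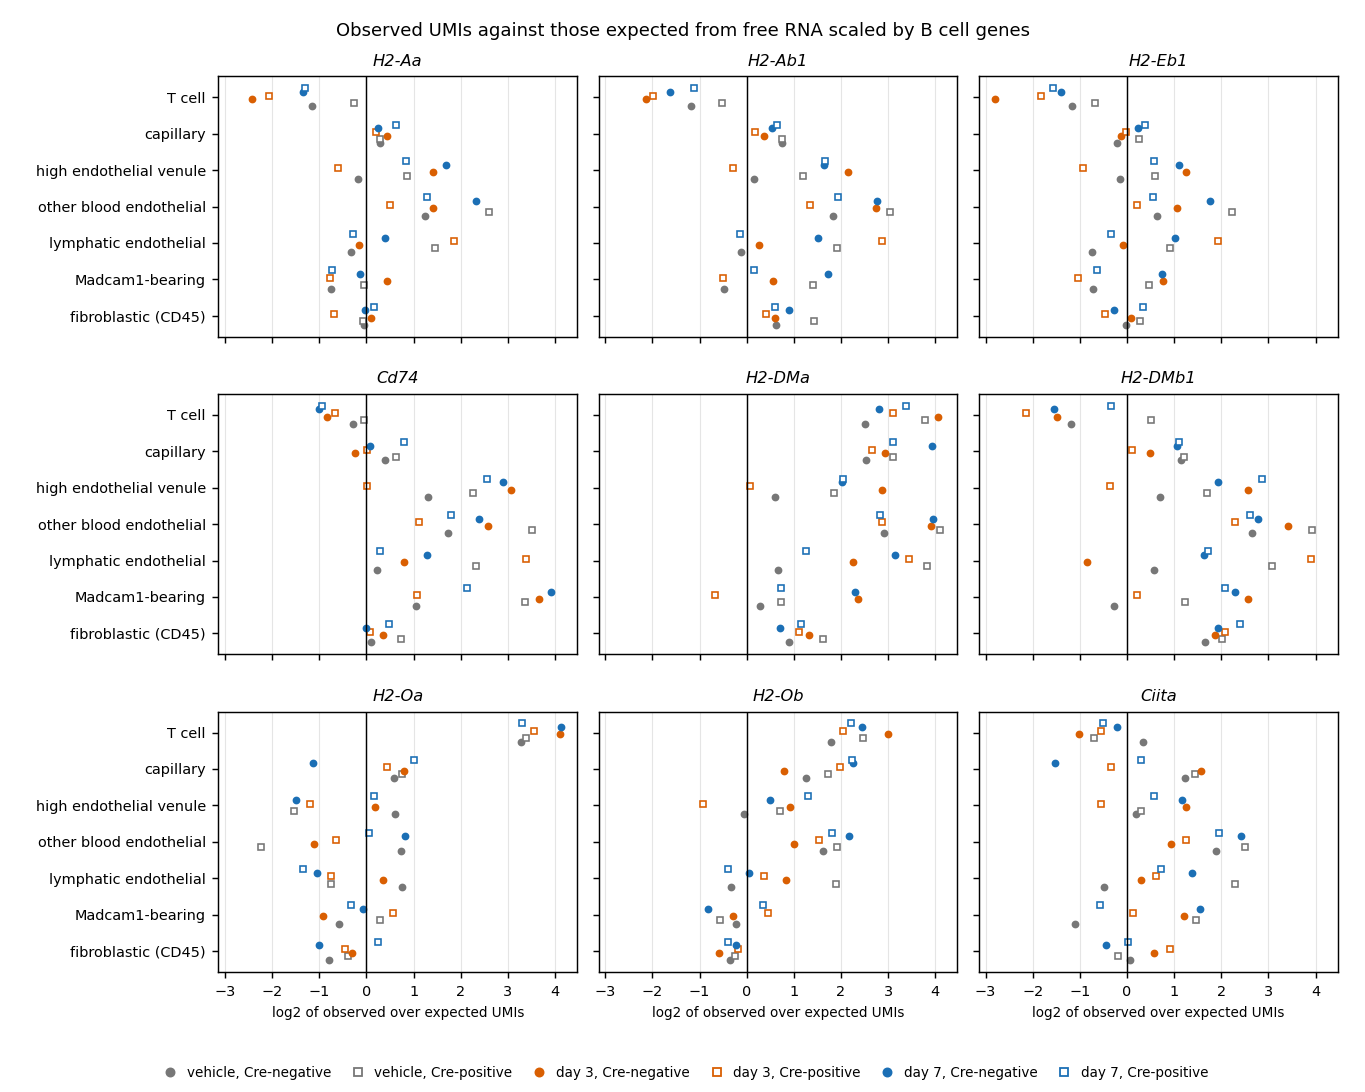
Observed UMIs over those expected from free RNA (log2, 0 is the expectation) for each member, 1 point for each of the 6 libraries, by class. In T cells H2-DMa, H2-Oa and H2-Ob lie above 0 in every library, and H2-Aa, H2-Ab1, H2-Eb1 and Cd74 below it in every library.

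Blood endothelium as a whole held more class II RNA than T cells for 5 of 9 members, where 42.3% of all genes tested were called higher. Cd74 stood at 149, 160.4, 114, 76.97, 167 and 118 CPM in the 3993, 3900, 3604, 4609, 3963 and 2851 blood endothelial cells of the libraries, a log2 difference from T cells of 1.14 (SE 0.17, adjusted p = 3.05e-05). H2-Ab1, at 39.6, 33.2, 28.3, 30.04, 33.8 and 31.6, differed by 1.43 (SE 0.17, adjusted p = 2.36e-06), and H2-DMb1, at 6.12, 5.06, 4.54, 3.07, 4.68 and 3.75, by 1.65 (SE 0.24, adjusted p = 2.29e-05). H2-DMb1 passed the filter on low counts through blood endothelium (59 to 118 UMIs a library, against 2 to 12 in T cells). The filter thus sets the count of members called higher in part. H2-Aa and H2-Eb1 differed by 0.91 (SE 0.17) and 0.68 (SE 0.17). H2-DMa and H2-Ob were lower, with log2 differences of -1.97 and -2.40, as was H2-Oa, which passed the filter on low counts through T cells (43 to 119 UMIs a library, against 5 to 25 in blood endothelium). Of all genes 38.2% were called lower. Ciita, at 0.28 (SE 0.29, adjusted p = 0.378), did not pass the test. With free RNA subtracted, 2 of the 5 members, Cd74 and H2-Ab1, were still called higher, and the other 3 did not pass the expression filter there. T cells lay above the free RNA expectation for Cd74 and H2-Ab1 in 0 of 6 libraries. Subtraction thus leaves T cells near 0 for both, and these 2 calls are no separate support. Against free RNA, 6 of 9 members were above the expectation in every library, H2-DMa by a ratio of 5.04, H2-DMb1 by 3.37, Cd74 by 3.07, H2-Ab1 by 2.21, H2-Ob by 2.09 and Ciita by 2.02. This is a low bar, since 95.5% of all genes with enough UMIs cleared it. H2-Aa and H2-Eb1 cleared it in 5 of 6 libraries, and H2-Oa in 3. Of the pathway's other genes, 5 of 7 for antigen processing were higher than in T cells (Ctsl by 4.21, Lgmn by 2.37) and 2 lower (Ctss, -3.55), and 7 of 9 interferon gamma targets were higher and 1 lower (Cxcl9, a chemokine for activated T cells, by 7.14). None of 7 promoter factors was higher and 3 were lower, and of 8 interferon gamma signalling genes 1 was higher and 4 lower (Socs1, -2.38). Of 6 costimulatory genes 4 were lower (Cd86 at -5.02) and 1 was higher (Cd40 at 3.25), and March8 was higher (5.22). The T cell list was lower for 5 of 5 genes (Cd3d at -9.13).

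The vessels differed among themselves, and the high endothelial venules, through which lymphocytes enter the node, held more than capillaries. Cd74 stood at 437, 498, 272, 197, 357 and 307 CPM in the venules (367, 360, 461, 705, 706 and 304 cells) and at 46.9, 26.8, 19.3, 27.1, 14.7 and 29.7 in capillary cells (1795, 1723, 2204, 1832, 1151 and 1136 cells), with every venule value above every capillary one. In a fit with library as a term, 7 members passed the filter on low counts and each was called higher in the venules, where 31.8% of all genes were called higher and 31.9% lower. H2-DMb1 passed the filter through the venules (28 to 53 UMIs a library, against 4 to 17 in capillaries), so the filter sets this count in part. H2-Oa and Ciita were not tested, with 1 to 12 and 5 to 18 UMIs in the venules and 0 to 5 and 0 to 11 in capillaries. The log2 difference was 3.94 (SE 0.21, adjusted p = 1.42e-08) for Cd74, 2.82 (SE 0.22) for H2-DMb1, 2.74 (SE 0.15) for H2-Ab1, 2.56 (SE 0.16) for H2-Eb1 and 2.52 (SE 0.22) for H2-Aa, and it was smaller for H2-Ob, at 0.83 (SE 0.26), and H2-DMa, at 0.70 (SE 0.16). The call for H2-Ob was lost without the vehicle Cre-negative library (0.74) or the vehicle Cre-positive one (0.60). H2-Ab1 stood at 64.6, 79.5, 47.3, 62.6, 46.98 and 56.6 in the venules and 19.6, 9.79, 9.58, 11.9, 6.36 and 9.03 in capillaries, H2-DMb1 at 9.09, 9.79, 6.81, 5.02, 7.07 and 8.95 and 2.56, 1.22, 1.1, 0.968, 1.22 and 0.881. B cell genes moved with the class: 4 of 4 tested genes of that list were higher in the venules, and the list summed to 73.96, 57.6, 17.1, 77.3, 25.4 and 24.3 CPM in the venules and 14.9, 9.64, 12.1, 10.6, 7.34 and 7.93 in capillaries, against 7945 to 8834 in B cells. The sum was highest in the vehicle Cre-negative and day 3 Cre-positive libraries, those with the cluster of mixed genes. In cells without any UMI of that list, the difference for Cd74 was 3.84 (SE 0.23, adjusted p = 2.52e-08), for H2-Ab1 2.39 and for H2-DMb1 2.70, while H2-Ob turned to -0.11. With free RNA subtracted, 3 members remained called, Cd74 at 5.91, H2-Ab1 at 3.13 and H2-Aa at 2.99. Capillary Cd74 lay near or below its free RNA expectation in some libraries. Its log2 ratio was -0.24 and 0.018 in the day 3 Cre-negative and Cre-positive libraries and 0.077 in the day 7 Cre-negative one. Subtraction leaves few or no UMIs there, so no size is read from the 5.91. Cd74 differed by 4.04 without the vehicle Cre-negative library and by 4.11 without the day 3 Cre-positive one.

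Against free RNA, the venules were above the expectation in every library for Cd74 (ratio 3.38) and H2-DMa (2.36), 2 of 9 members where 93.9% of genes were, and in the day 3 Cre-positive library Cd74 exceeded it by only 0.02 on the log2 scale. H2-Ab1 exceeded it in 5 of 6 libraries (ratio 1.66) and H2-Aa in 4. With a shorter B cell list, without Ighd and Cd22, neither of the 2 cleared it in every library, and without the day 3 Cre-positive library 5 of 9 members did. The share of venule cells with a Cd74 UMI after thinning was 27.4, 26.5, 16.1, 19.9, 20.7 and 18.8%, against 4.5, 2.4, 2.06, 2.88, 1.62 and 2.37% of capillary cells and 5.55, 3.27, 2.69, 3.75, 2.42 and 2.72% of T cells, with median depths of 9264, 3104 and 5328 UMIs before thinning. Unthinned, the venule shares were 61.03, 63.9, 49.2, 40.3, 58.6 and 51.3%. For H2-Ab1 the thinned share was 6.01, 6.51, 3.48, 9.08, 4.16 and 5.16% in the venules and 1.39, 0.708, 0.471, 0.864, 0.577 and 0.699% in T cells. The venules exceeded T cells in 6 of 6 libraries for both genes (exact sign-flip test, two-sided, p = 0.03125, the smallest possible), while capillary cells were below T cells for Cd74 in 6 of 6 libraries and above them for H2-Ab1 in 6 of 6. These shares hold free RNA too. Cd74 was above its free RNA expectation in 5 of 6 libraries in capillary cells (ratio 1.22) and in 0 in T cells (0.689). The highest venule share of H2-Ab1, 9.08%, was in the day 3 Cre-positive library. There H2-Ab1 lay below its free RNA expectation (log2 of -0.29). The ratio of Cd74 to the summed H2-Aa, H2-Ab1 and H2-Eb1 was 2.61 (1.4 to 2.91) in the venules, 0.978 (0.755 to 1.18) in capillaries, 1.12 (0.981 to 1.2) in B cells of the same libraries and 0.985 (0.918 to 1.12) in free RNA. The venules were above each of these 3 in 6 of 6 libraries. In T cells of the same libraries the ratio was 1.68 (1.25 to 3.3). It was above that of the venules in both day 3 libraries (3.3 against 2.77 and 2.26 against 1.4) and below it in the others. Among other genes of the pathway, 5 of 7 for antigen processing were higher in the venules than in capillaries and 1 was lower (Ctss by 3.21, Lgmn by 2.18, Ifi30 by 1.89). For interferon gamma signalling 5 of 8 were higher and 2 lower (Jak1 by 1.98, Ifngr2 by 1.34), and for its targets 4 of 9 were higher and 1 lower (Cxcl10 by 2.90), with medians of 0.58 and -0.15 where all genes had -0.02. Promoter factors were higher for 0 of 7 and lower for 2 (Rfxap at -1.80), and of 3 costimulatory genes 2 were higher (Pdcd1lg2 at 1.57) and 1 lower (Cd40 at -1.78).

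**Figure D4:**
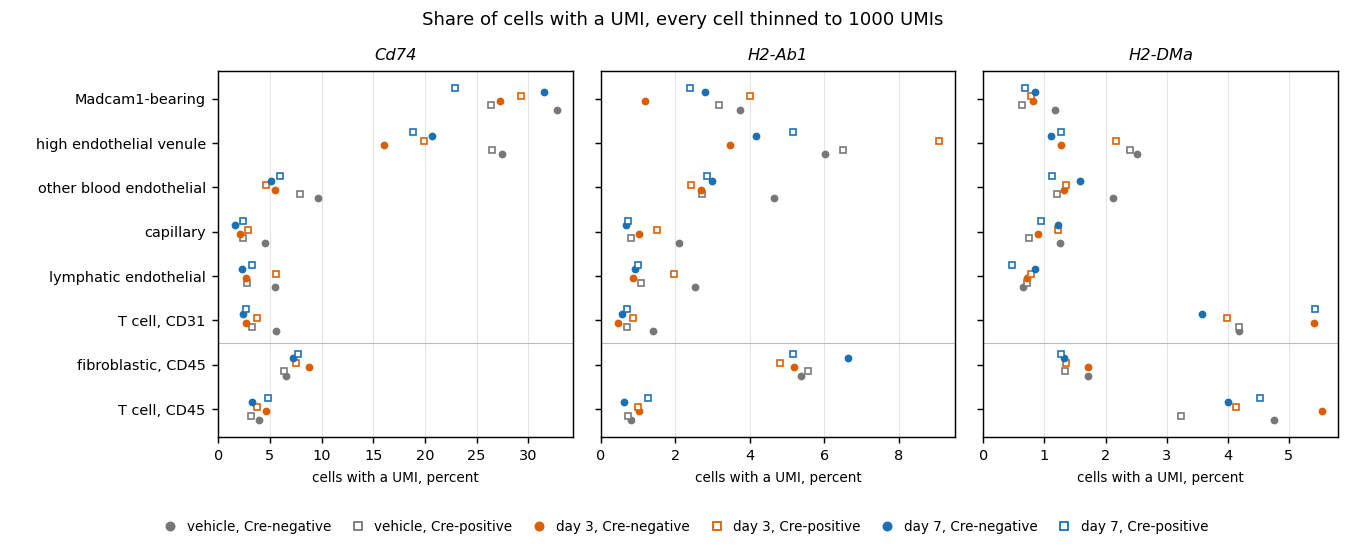
Share of cells with at least 1 UMI of Cd74, H2-Ab1 or H2-DMa after thinning every cell to 1000 UMIs (percent), 1 point for each of the 6 libraries, by class. For Cd74 the venules and the Madcam1-bearing cluster, with medians of 20.3% and 28.3%, stand above T cells, at 2.99%.

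The largest rest of the blood endothelium, named neither capillary, arterial, venous nor high endothelial (1424, 1555, 661, 1490, 1800 and 1113 cells), stood between them, with Cd74 at 129.7, 141, 79.6, 48.3, 86.4 and 92.7 CPM and H2-Ab1 at 45.5, 34.1, 29.6, 22.4, 35.7 and 34.99. It cleared the free RNA expectation in every library for 8 members, where 98.2% of genes did, with ratios of 4.36 for Cd74, 4.46 for H2-Ab1, 7.91 for H2-DMb1 and 4.17 for Ciita. H2-Oa had too few UMIs in this class to be read. Its largest cluster, of 5556 cells, also had the capillary markers as its leading list. Pooled over libraries, Cd74 stood at 79.1 CPM in that cluster and at 22.997 to 29.4 in the 4 clusters of the capillary class, so the comparison of venules with capillaries leaves out a cluster of higher Cd74 that scored for the same markers. Arterial cells had Cd74 at 16.7 to 103 and venous cells at 50.9 to 241. Capillary cells cleared the expectation for 5 members (H2-Aa 1.26, H2-Ab1 1.45, H2-DMb1 1.9, H2-Ob 3.46 and H2-DMa 8.01), where 98.4% of genes did. Their Cd74 was above it in 5 of 6 libraries (ratio 1.22).

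In lymphatic endothelium, which lines the sinuses, Cd74 overlapped the range of T cells. It stood at 78.5, 28.1, 48.3, 79.8, 31.2 and 43.7 CPM in 647, 445, 343, 341, 645 and 767 cells and at 101, 50.3, 30.9, 43.7, 41.4 and 43.8 in T cells. Pooled over libraries, it was at 51.4 CPM in the lymphatic cluster of 2562 cells. The largest T cell clusters held 16.3 and 16.2 and that of 1152 cells 136, so the order depends on the mix of the T cell class. In the fit with library as a term, 7 members passed the filter on low counts, and 2 of them, H2-Oa and H2-Ob, passed it through T cells alone. H2-Oa had 7, 0, 1, 0, 0 and 1 UMIs in lymphatic endothelium and 119, 64, 43, 69, 98 and 63 in T cells, and H2-Ob 1 to 7 and 44 to 103. H2-DMb1 and Ciita were not tested, with medians of 2.54 and 0.796 CPM in lymphatic endothelium and 1.18 and 1.12 in T cells and ranges that overlapped. None of the 7 was called higher (edgeR, with 6 under an unadjusted p of 0.05, all of them lower, and none higher by DESeq2) and 6 were called lower, a count that the filter sets in part. Of all genes 40.7% were called higher and 40.4% lower. The log2 difference was -3.14 for H2-DMa. It was smaller for H2-Aa, at -0.68 (SE 0.24, adjusted p = 0.0163), for H2-Eb1, at -0.57 (SE 0.25, adjusted p = 0.0408), and for Cd74, at -0.46 (SE 0.17, adjusted p = 0.0203). H2-Ab1 was at -0.05 (SE 0.24, adjusted p = 0.845). With free RNA subtracted, fewer members were called lower and Cd74 turned above 0. T cells then stand near 0, so no size is read from it. The calls for H2-Aa, H2-Eb1 and Cd74 were lost in DESeq2 and without the vehicle Cre-positive library (-0.45, -0.36 and -0.33) or the day 7 Cre-negative one (-0.54, -0.54 and -0.38). Those for H2-Eb1 and Cd74 were lost without the vehicle Cre-negative library (-0.45 and -0.36), that for H2-Eb1 without the day 7 Cre-positive one (-0.60), and with doublets kept Cd74, H2-Aa and H2-Eb1 turned to 0.43, 0.57 and 0.63. In the vehicle Cre-negative and day 3 Cre-positive CD31 libraries the barcodes removed as doublets had fewer UMIs than those left (medians of 3932 against 4325 and 2203 against 3433), and in the other 10 libraries they had more. Against free RNA, Cd74 (ratio 1.74) and H2-DMa (3.83) were above the expectation in every library, as were 98.8% of genes. For Cd74, 1138 UMIs were observed in lymphatic endothelium and 653 expected from free RNA, against 1763 and 2559.7 in T cells. The fit against T cells leaves free RNA in, and its amount need not be alike in the 2 classes. The thinned share of cells with Cd74 was 5.44, 2.74, 2.63, 5.59, 2.27 and 3.22%, which did not differ in 1 direction from T cells (exact sign-flip test, two-sided, p = 0.75), and that with H2-Ab1 was 2.52, 1.07, 0.849, 1.97, 0.927 and 0.982%, higher in 6 of 6 libraries (p = 0.03125 in the same exact test). Of the other pathway genes, 5 of 7 for antigen processing and 6 of 9 interferon gamma targets were higher than in T cells and 2 of each lower (Lgmn at 4.02, Ifi30 at -4.21), with 6 of 8 interferon gamma signalling genes lower and 1 higher. Promoter factors were lower for 4 of 7 and higher for 1, and costimulatory genes lower for 3 of 4 (Pdcd1lg2 at -6.84) and higher for 1 (Cd40 at 5.03).

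A cluster with lymphatic markers was set apart by Madcam1, the addressin for gut-homing lymphocytes, and is called the Madcam1-bearing cluster. Madcam1 stood at 226 to 433 CPM in it and at 0.915 to 5.05 in the other lymphatic cells, Prox1 at 577 to 969 and Lyve1 at 279 to 476. It also held Glycam1, a marker of high endothelial venules, at 6225 to 12631, where the other lymphatic cells held 21.96 to 143. Cd74 was at 511, 379, 446, 471, 447 and 329 in its 194, 284, 145, 128, 499 and 221 cells, above the lymphatic endothelium in every library. Of the 9 members 6 passed the filter on low counts (H2-Oa, H2-Ob and Ciita did not), and these 6 were higher than in lymphatic endothelium, where 25.8% of all genes were and 21.5% were lower. H2-DMb1, with 1 to 17 UMIs a library in lymphatic endothelium and 6 to 21 in the smaller cluster, was near the filter's limit, so the filter may set this count in part. Cd74 differed by 3.27 (SE 0.16, adjusted p = 1.09e-09), H2-Eb1 by 1.61 (SE 0.18), H2-Ab1 by 1.60 (SE 0.13), H2-DMb1 by 1.39 (SE 0.34) and H2-Aa by 1.38 (SE 0.19), while H2-DMa, at 0.63 (SE 0.24, adjusted p = 0.0498), lost its call when any library but the vehicle Cre-positive one was left out, and reached 0.35 without the vehicle Cre-negative one. Only Cd74 stayed called with free RNA subtracted (4.18). In cells without a B cell UMI it differed by 3.46 and H2-Ab1 by 1.19. The B cell list summed to 104, 20.4, 18.5, 89.3, 15.6 and 34.9 CPM in the cluster and 28.2, 3.05, 14.8, 2.97, 6.69 and 16.7 in lymphatic endothelium. Cd74 cleared the free RNA expectation in 6 of 6 libraries (ratio 4.54), the only member to do so (1 more did without either the vehicle Cre-negative or the day 3 Cre-positive library), where 96% of genes did. After thinning, 32.7, 26.4, 27.3, 29.3, 31.5 and 22.9% of its cells held a Cd74 UMI and 3.73, 3.17, 1.19, 4.01, 2.79 and 2.4% one of H2-Ab1. The ratio of Cd74 to the summed class II chains was 5.7 (3.15 to 8.78), and that of lymphatic endothelium was 1.56 (1.3 to 1.85). The cluster was above lymphatic endothelium, B cells and free RNA in 6 of 6 libraries each. Of 8 genes of interferon gamma signalling 7 were higher than in lymphatic endothelium (Socs1, a feedback inhibitor, by 3.33), and of its 9 targets 3 were higher (Cxcl9 by 3.64) and 5 lower. Antigen processing had 3 higher and 2 lower of 6 (Ctss by 3.07), Cd274, the ligand of PD-1, was higher by 2.08 and Cd40 lower at -3.37. Promoter factors were higher for 2 of 7 and lower for 1 (Nfyb at -0.84), and March8 was lower (-0.31), a call lost without the vehicle or the day 7 Cre-negative library (-0.26 and -0.27).

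Fibroblastic cells of the CD45 libraries held the class II chains above T cells of the same libraries. H2-Ab1 stood at 80.3, 68.9, 65.7, 57.3, 96.7 and 73.0 CPM in fibroblastic cells (1339, 1543, 1474, 1125, 1132 and 1923 cells) and 10.8, 8.3, 10.02, 10.7, 7.94 and 16.5 in T cells, without overlap, and H2-DMb1 at 11.1, 7.36, 16.7, 15.2, 15.1 and 14.2 and 1.45, 0.963, 1.75, 1.05, 0.757 and 1.76. Of 9 members 6 were higher than in T cells, where 40.1% of all genes were: H2-DMb1 by 3.0 (SE 0.20, adjusted p = 1.4e-07), H2-Ab1 by 2.45 (SE 0.17, adjusted p = 1.7e-07), H2-Eb1 by 1.71 (SE 0.12), H2-Aa by 1.52 (SE 0.16), Cd74 by 1.22 (SE 0.11) and Ciita by 1.22 (SE 0.26). H2-DMb1 had 10 to 25 UMIs a library in T cells and 95 to 297 in fibroblastic cells, and Ciita 7 to 21 and 15 to 69. In T cells both lay near the limit of the filter on low counts, so the filter may set the count of 6 in part. H2-Oa, H2-Ob and H2-DMa were lower, 3 of 9 against 41.9% of all genes, with log2 differences of -3.03, -2.06 and -1.87. B cell genes moved with the class here too: 4 of 8 were higher than in T cells and 2 lower, and the list summed to 95.9, 41.6, 57.1, 52.7, 95.2 and 71.98 in fibroblastic cells and 39.2, 30.1, 39.3, 34.8, 37.0 and 48.3 in T cells. Among cells without a B cell UMI, H2-DMb1 differed by 2.98, H2-Ab1 by 2.47, H2-Eb1 by 1.24, H2-Aa by 0.72 and Cd74 by 0.61, and Ciita turned to -0.15 (adjusted p = 0.687). With free RNA subtracted only H2-Ab1 and H2-DMb1 were still called higher. T cells lay above the free RNA expectation for H2-Ab1 in 0 of 6 libraries and for H2-DMb1 in 1. Subtraction thus leaves T cells near 0 for both, and these 2 calls are no separate support. Against free RNA, H2-DMb1 (ratio 4.09), H2-DMa (2.25) and H2-Ab1 (1.63) were above the expectation in 6 of 6 libraries, where 95.5% of genes were. Cd74, at a ratio of 1.23, was above it in 5, H2-Eb1, at 1.005, in 3 and H2-Aa, at 0.949, in 2, and H2-Ob was below it in all 6. After thinning, 5.37, 5.57, 5.18, 4.8, 6.62 and 5.15% of fibroblastic cells and 0.798, 0.73, 1.02, 1.0, 0.616 and 1.27% of T cells held an H2-Ab1 UMI, at median depths of 8384 and 5191 UMIs before thinning, and unthinned the fibroblastic shares were 18.1, 23.8, 32.1, 34.4, 21.8 and 24.6%. The ratio of H2-DMb1 to H2-DMa was 0.942 (0.571 to 1.06) in fibroblastic cells and above that of the B cells in 6 of 6 libraries. Antigen processing genes were higher than in T cells for 5 of 7 and lower for 1 (Ctsl at 5.0, Ctss at -2.77), and interferon gamma targets for 4 of 9, with 4 lower (Cxcl9 at 7.34, Gbp4 at -3.61). No promoter factor was higher and 4 of 7 were lower, and 6 of 8 interferon gamma signalling genes were lower (Nlrc5, the transactivator of class I, at -3.01). Of 5 costimulatory genes 3 were lower (Pdcd1lg2 at -4.85) and 2 higher (Icosl at 2.77), and both March1 and March8 were higher (1.39 and 6.24). A small Cr2-led cluster beside them, of 31, 12, 10, 8, 19 and 58 cells, held Cd74 at 265, 437, 660.4, 202, 631 and 994.

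The design allows a comparison of treatments and labels only by setting libraries of the other factor together, since each combination is 1 library. The fit took label and treatment as terms over the 6 libraries of a fraction and keeps 2 residual degrees of freedom. An interaction of label and treatment counts as error in it. Over 10 classes this gave 78 member tests for each effect. The classes are nested in part, since blood endothelium holds the venules and capillaries and the dendritic class is the migratory and type 1 cells together, so some cells enter these counts more than once. For the label, Cre-positive against Cre-negative, edgeR called none (7 were under an unadjusted p of 0.05, and DESeq2 called none). Over all genes the label was called for 0.00696% in blood endothelium, 0.0354% in the venules, 0.034% in lymphatic endothelium, 0.0086% in B cells, 0.198% in type 1 dendritic cells and none in the other 5 classes. For day 7 against vehicle it also called none (7 under 0.05, none by DESeq2), and for day 3 against vehicle 2 (19 under 0.05, 2 by DESeq2). Day 7 was called for 0.275% of all genes in fibroblastic and 0.0152% in type 1 dendritic cells and for none elsewhere. Day 3 was called for 11.8% in fibroblastic cells, 1.4% in the venules, 0.256% in migratory mature dendritic cells, 0.129% in B cells, 0.0737% in all dendritic cells together, 0.0608% in type 1 dendritic cells, 0.0186% in the Madcam1-bearing cluster and none in the other 3 classes. Over all genes, 0.612% of the tests in these 30 comparisons were called and 8.675% were under 0.05, and over the 234 member tests 14.1% were under 0.05.

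The first call was Cd74 in the high endothelial venules, which was lower on day 3, at 437, 498, 272, 197, 357 and 307 CPM. Both day 3 libraries lay below the other 4, and the log2 difference from vehicle was -1.03 (SE 0.19, adjusted p = 0.0405), where 0.672% of all genes were called lower. The other members had the same sign in the venules. All 8 tested were below 0, with a median of -0.77 where that of all genes was -0.000904. Of these 8, 6 were under an unadjusted p of 0.05, as were 2570 of all 11312 genes tested. None of the other 7 passed the adjusted test, with H2-Eb1 at -0.86 (SE 0.21, adjusted p = 0.0673), H2-Aa at -0.91 (SE 0.29), H2-Ob at -1.21 (SE 0.39) and H2-Ab1 at -0.40 (SE 0.14). H2-Eb1 stood at 55.8, 58.5, 25.9, 37.6, 29.5 and 26.2 and H2-Ab1 at 64.6, 79.5, 47.3, 62.6, 46.98 and 56.6. On day 7 all 8 were again below 0 and none passed, with Cd74 at -0.47 (SE 0.19, adjusted p = 0.988). Of the 8, 4 were under an unadjusted edgeR p of 0.05 on day 7, as were 325 of all 11312 genes tested. The B cell list in the venules summed to 73.96, 57.6, 17.1, 77.3, 25.4 and 24.3 CPM. It was low in 1 day 3 library and high in the other, and both day 7 libraries lay below both vehicle ones, as the members did on the whole on day 7. Free RNA of the same libraries held Cd74 at 1509, 1091, 1029, 998, 735 and 988 CPM. Both day 3 and both day 7 libraries lay below both vehicle ones there too. The part of the B cell list and of free RNA in these differences was not tested. In cells without a UMI of that list the difference for Cd74 was -1.10 (SE 0.30, adjusted p = 0.0844), and with free RNA subtracted -2.32 (SE 1.24, adjusted p = 0.339), neither of them under the threshold of 0.05. The call was also lost without the vehicle Cre-positive library (-0.71), without the day 3 Cre-negative one (-1.21) or without the day 3 Cre-positive one (-0.84), and with doublets kept (-0.98). Of 9 interferon gamma targets 1 rose on day 3 in the venules, Cxcl10, by 1.51, a call lost without either day 3 library (1.43 without the Cre-negative and 1.59 without the Cre-positive one). The day 3 change of the venules less that of the capillaries was called for 0 of 7 members (0 of all genes by edgeR, 0 members by DESeq2, 1 member under an unadjusted p of 0.05) and was -0.44 (SE 0.47) for Cd74.

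The second call was H2-DMb1 in fibroblastic cells, which was higher on day 3, at 11.1, 7.36, 16.7, 15.2, 15.1 and 14.2 CPM, by 0.85 (SE 0.19, adjusted p = 0.0387). Here 6.07% of all genes were called higher and 5.75% lower. The fibroblastic class lay in different clusters by treatment. Its cluster 11 held 599 and 563 cells of the day 3 libraries and 51, 25, 35 and 113 of the others, and its cluster 20 held 320 and 117 against 23, 67, 66 and 30. Pooled over libraries, H2-DMb1 stood at 16.3 and 21.3 CPM in these clusters, while cluster 17, with 54 and 46 day 3 cells against 185 and 209 in the vehicle libraries and 33 and 82 on day 7, had 3.21. The part of this shift in the difference was not tested. The vehicle libraries were the lowest 2 of the 6, and day 7 differed by 0.69 (SE 0.20, adjusted p = 0.411). None of the other 8 members was called, the lowest being at -0.55, and the median of all 9 was 0.03. H2-Ab1 was at -0.24 (SE 0.14) and Cd74 at 0.08 (SE 0.19). Of 7 genes for antigen processing 2 rose on day 3, Ifi30 by 1.04 and Lgmn by 0.91, and of 6 costimulatory genes 1, Icosl, fell (-1.48). Each of these 3 calls was lost without either day 3 library, with Ifi30 at 0.72 and 1.35, Lgmn at 0.83 and 1.02 and Icosl at -1.30 and -1.66 without the Cre-negative and the Cre-positive one, and that of Lgmn also without the vehicle Cre-positive library (0.63). The call for H2-DMb1 was lost without the vehicle Cre-positive library (0.66), without either day 3 library (0.90 and 0.83), and with doublets kept (0.57). For the label, all 9 members were below 0 in fibroblastic cells and 4 were under an unadjusted p of 0.05, with H2-Aa at -0.68 (SE 0.19, adjusted p = 0.532). Of all 14934 genes tested for the label there, 1394 were under an unadjusted p of 0.05.

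**Figure D5:**
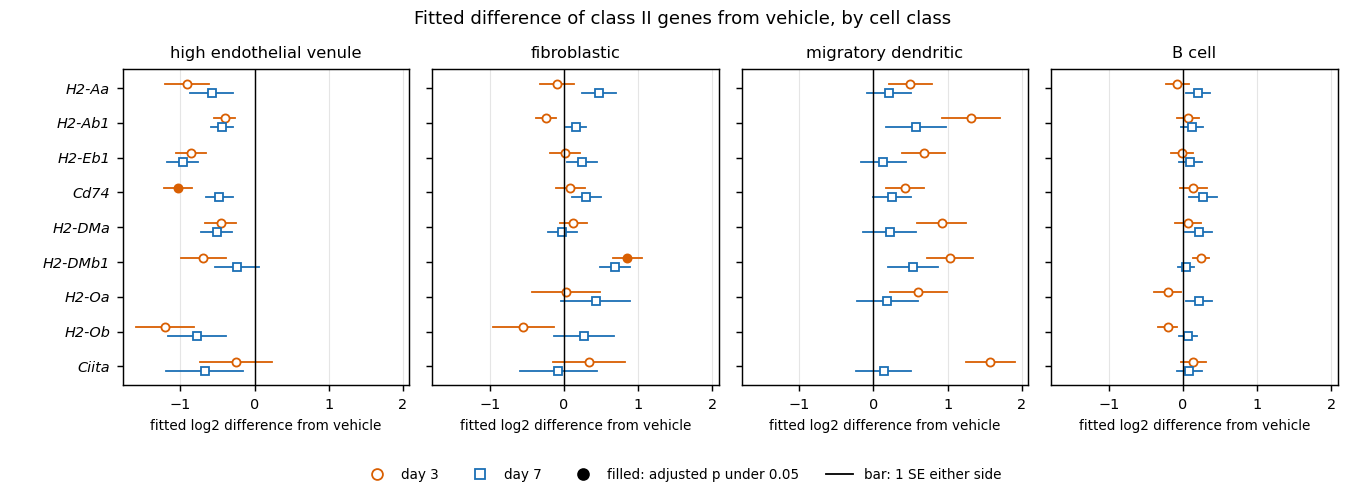
Fitted log2 difference of each member from vehicle on day 3 (circles) and day 7 (squares) in high endothelial venules, fibroblastic cells, migratory dendritic cells and B cells, with bars of 1 SE either side and filled symbols where the adjusted p is under 0.05. Filled are Cd74 in the venules at -1.03 and H2-DMb1 in fibroblastic cells at 0.85, both on day 3.

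In the presenting cells that were fitted, the members moved little or were not called. Mixed myeloid cells and plasmacytoid dendritic cells were not fitted for treatment. In the mixed myeloid cells the ratio of H2-DMb1 to H2-DMa was 0.574, 0.47, 0.955, 0.859, 0.624 and 0.495. It was highest in both day 3 libraries, which was not tested. In B cells the day 3 differences ran from -0.21 to 0.25 over 9 members and in type 1 dendritic cells from -0.70 (H2-Ob, with an unadjusted edgeR p of 0.0151) to 0.08, with none called by edgeR or DESeq2 in either. In migratory mature dendritic cells 8 of 8 tested members were above 0 on day 3, with a median of 0.80 against 0.00147 for all genes. Of these, 5 were under an unadjusted p of 0.05, as were 858 of all 7824 genes tested. None passed the adjusted test, where 0.217% of all genes were called higher. Ciita stood at 24.5, 28.9, 103, 60.9, 21.6 and 33.6 CPM and H2-Ab1 at 826, 366, 1787, 1177, 512 and 1149.5, with differences of 1.58 (SE 0.33, adjusted p = 0.0881) and 1.32 (SE 0.39, adjusted p = 0.231). Both day 3 libraries were above the other 4 for Ciita. Without the day 7 Cre-positive library 3 members were called, without the vehicle Cre-negative one 2, and without the day 3 Cre-positive or the day 7 Cre-negative one 1. Of 6 costimulatory genes 3 rose in these cells on day 3 (Cd80 by 2.88, Cd86 by 2.17 and Cd274 by 1.34), and in type 1 dendritic cells 1 of 3 interferon gamma targets, Cxcl10, rose on day 3 by 2.64 and on day 7 by 3.27. The 3 costimulatory calls were lost without the day 3 Cre-negative library (3.34, 2.23 and 1.35), and that of Cd274 also without the vehicle or the day 3 Cre-positive one (1.18 and 1.31). The day 3 call of Cxcl10 was lost without either vehicle library or the day 3 Cre-negative one (2.76, 2.59 and 1.97) and with doublets kept (1.07), and that of day 7 without the vehicle Cre-negative library (3.39) and with doublets kept (1.73). In blood endothelium all 9 members were below 0 on day 3 and none was called (4 under an unadjusted p of 0.05, none by DESeq2), with Cd74 at -0.67 (SE 0.19, adjusted p = 0.152). Of all 14366 genes tested there, 2976 were under an unadjusted p of 0.05. In lymphatic endothelium none of 5 was called (none under 0.05, none by DESeq2), while Cxcl10, 1 of 9 interferon gamma targets, was higher in the libraries labelled Cre-positive, by 1.31, a call lost without either day 3 library (1.32 and 1.31). The day 3 change of lymphatic less blood endothelium called 0 of 8 members (0 under 0.05, DESeq2 0) and 0 of all 13592 genes tested. The members had a median of 0.495 in it, and 7 of the 8 were above 0.

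Over 185 sums of 1 class in 1 library each, in 38 classes, the levels of the members varied together. The correlation (Pearson's r of log levels) of each member with the mean of the other 8 was 0.977 for H2-Aa, 0.976 for H2-Eb1, 0.970 for H2-Ab1, 0.957 for Cd74, 0.955 for Ciita, 0.932 for H2-DMa and 0.913 for H2-DMb1, and lower for H2-Oa (0.844) and H2-Ob (0.736). These values describe the table and carry no test, since classes share libraries and library depth and may be nested in part, so that some cells enter more than once. The genes outside the set with the most similar pattern, of 7153 above 20 CPM on average, were Ly86 (0.942), Pkib (0.931), Wdfy4 (0.925), H2-DMb2 (0.921), Fgd2 (0.916), Napsa (0.916), Btk (0.913), March1 (0.911), Cd180 (0.911) and Kynu (0.905).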

How the data were processed

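UMI counts per gene and cell barcode were used as deposited by the authors, in 12 matrices of 32285 features that hold empty droplets too. They were made with Cell Ranger 7.0.1 and mm10, per the submitters' processing notes; mRFP is listed in 4 of the CD31 libraries. The members and gene lists were chosen with earlier results of these data known.

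A barcode counted as a cell with 1000 or more UMIs, 500 or more genes and no more than 10% of UMIs from mitochondrial genes. Scrublet's automatic threshold marked under 5 cells in 3 libraries, so the top-scoring 0.8% per 1000 barcodes were removed from each; in 2 CD31 libraries, vehicle Cre-negative and day 3 Cre-positive, these had fewer UMIs than the barcodes left. Cells were clustered per fraction in scanpy 1.11.5 (2000 variable genes, 30 principal components, 20 neighbours, Leiden resolution 1.0 for CD31 and 1.5 for CD45), without the members and lists among the variable genes, and named from markers.

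UMIs were summed per library and class (at least 20 cells in every library tested) and tested with edgeR 4.0.16 (TMM, filterByExpr, quasi-likelihood F test), with Benjamini-Hochberg adjustment over all genes tested and a threshold of 0.05. Classes of the same libraries were compared with library as a term. Label and treatment were fitted together over 6 libraries, 1 per group, with 2 residual degrees of freedom; since the labels do not give the mice, p-values measure the spread between libraries. On simulated counts, 2-fold changes were recovered for 100% of changed genes in blood endothelium against T cells (13819 genes), for 70% on day 3 in high endothelial venules (11344 genes) and for 34% in the day 3 change of lymphatic less blood endothelium (13765 genes). All genes had the same dispersion there, a set value not estimated from these libraries, and the shares depend on it. Only genes expected at 20 or more UMIs in the smallest sum were changed. Members below that, such as Ciita and H2-Ob in the venules (5 to 18 and 10 to 23 UMIs a library), are not described by these shares.

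Free RNA was the profile of barcodes of 10 to 100 UMIs, scaled in each class to the summed UMIs of 8 B cell genes, and compared as log2 of observed over expected UMIs (0.5 added) for genes with 60 or more UMIs observed plus expected. Shares were compared after thinning each cell to 1000 UMIs, by exact two-sided sign-flip tests over 6 libraries. Fibroblastic cells were planned for the CD31 libraries and tested in the CD45 libraries, where they were found. The comparisons of venules with capillaries, of the Madcam1-bearing cluster with lymphatic endothelium and of the 2 dendritic classes, and the ratios of members, were added after seeing the data. The members were given in every class reported, and of each list up to 4 genes past the threshold with the largest change could be named. Alternatives were DESeq2 1.42.0, no filter on expression, free RNA subtracted, cells of at least 2000 UMIs, doublets kept, cells with no B cell UMI, another free RNA profile and B cell list, thinning to 2000 UMIs, and leaving out each library.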

Additional observations from a re-analysis of the deposited data

How the results depend on the processing

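No paired analysis was possible because, for label and treatment, each group is 1 library and no replicate number joins libraries; classes within the same libraries were compared with library as a term. Under the other settings, 312 counts of members kept within 1.5 times of the reported one and 22 moved further, and of the values for single genes, members and listed genes together, 760 kept direction and call, 34 lost the call and 7 reversed. With free RNA subtracted, members called higher went from 6 to 1 in the Madcam1-bearing cluster against lymphatic endothelium, from 5 to 2 in blood endothelium and from 6 to 2 in fibroblastic cells against T cells, from 7 to 3 in venules against capillaries, and from 0 to 1 in lymphatic endothelium against T cells, where those lower went from 6 to 3; the venules on day 3 went from 1 to 0. Fewer genes pass the expression filter there. T cells then stand near 0 for the members called higher against them, so these calls are no separate support. No size is read from Cd74 in lymphatic endothelium against T cells, which reversed to 9.55. H2-DMa in the Madcam1-bearing cluster reversed to -0.13. With doublets kept, lymphatic endothelium against T cells had 5 higher and 3 lower, with Cd74, H2-Aa and H2-Eb1 reversed to 0.43, 0.57 and 0.63, and the day 3 calls in venules and fibroblastic cells went to 0. DESeq2 called 3 lower in lymphatic endothelium. Cells of at least 2000 UMIs gave 2 calls in the venules on day 3, and cells with no B cell UMI 0, with Ciita in fibroblastic cells against T cells reversed to -0.15 and H2-Ob in venules against capillaries to -0.11. With no expression filter, day 3 gave 1 call in dendritic cells, 3 in venules and 4 in migratory dendritic cells, day 7 gave 2 in the Madcam1-bearing cluster and 1 in venules, and the day 3 change of lymphatic less blood endothelium gave 1. Planned fits for macrophages were not run, since some libraries held too few of them, and those for fibroblastic cells used the CD45 libraries, chosen after seeing the data. The shorter B cell list took the venules over free RNA from 2 to 0 members, and thinning to 2000 UMIs took capillary cells from 1 to 0. The cause of these moves was otherwise not tested.

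Leaving out 1 library at a time gave 0 to 3 calls on day 3 in the venules and in migratory dendritic cells, 0 to 2 in lymphatic endothelium, 0 to 1 in fibroblastic, dendritic and Madcam1-bearing cells, on day 7 0 to 2 in venules, lymphatic endothelium and the Madcam1-bearing cluster, and for the label 0 to 3 in migratory dendritic and 0 to 1 in fibroblastic cells. Members lower in lymphatic endothelium than in T cells ran from 3 to 6, and members over free RNA from 2 to 5 in venules and from 1 to 2 in the Madcam1-bearing cluster. Where this left 1 library in an arm, that library is assumed to vary like the others. Fits for label and treatment rest on 2 residual degrees of freedom, so a count of 0 there does not show that levels were alike, and classes of few cells (24 to 52 type 1 dendritic cells a library) limit what their counts can show.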
